A study of Mus musculus with 45 samples.

Results

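Wfdc17 is a single gene of the 30317 listed in the expression table of this study, and its row was followed through all 45 libraries. It was picked because its level was lower, on average, in B cells cultured on stroma that carries a Notch ligand than in B cells cultured on stroma without it. The values that chose it are therefore the differences between those stromas, which are given below as a description with no test. RNA was measured by sequencing of polyA transcripts from splenic follicular B cells of B6.Blimp1GFP/+ mice, in which 1 of the copies of Blimp1, the gene of a plasma cell regulator, carries a GFP reporter. That genotype is shared by every group, and neither the age of the mice nor whether replicates came from separate mice is given in the sources used here.

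The cells were kept on OP9-DL1, a stromal line that carries the Notch ligand Delta-like 1, or on OP9, the line without it, and are called DL1 cells and OP9 cells. On each stroma the cells received lipopolysaccharide (LPS, from Salmonella enterica, a ligand of Toll-like receptor 4) for 20, 44 or 68 h, an anti-IgM F(ab')2 that binds the B cell receptor for 20, 44 or 68 h, or medium alone for 68 h. Each stimulus was given at 10 µg/mL. A further group holds Blimp1+ cells from LPS cultures on DL1, with no time in the labels. This makes 15 groups of 3 libraries, 24 libraries of DL1 cells and 21 of OP9 cells. Only 1 line of each stroma was used, so the ligand and any other difference between the lines cannot be told apart.

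Wfdc17 encodes a small secreted protein with a whey acidic protein (WAP) domain, a fold held together by disulfide bonds between cysteines. The family includes inhibitors of serine proteases and proteins with antimicrobial activity, and mouse Wfdc17 is best known from activated macrophages and microglia. Notch receptors are cleaved when they bind a ligand such as Delta-like 1 on a neighbouring cell, and the freed intracellular part then acts on transcription in the nucleus. In the spleen, Notch2 signalling of this kind directs B cells towards the marginal zone fate.

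The mouse gene (ENSMUSG00000069792.5) lies on the plus strand of chromosome 11 at chr11:83703991-83706268 in GRCm38. GENCODE vM21 gives it 1 coding transcript of 533 bases in 3 exons. The coding sequence of 231 bases spans the first exon (82 coding bases) and the second (149 coding bases), and the third exon is untranslated. Wfdc18 begins 2747 bases downstream of the end of Wfdc17 and Wfdc21 begins 40672 bases downstream, both on the same strand. Their coding sequences are printed below because reads of near-identical genes could be mixed up. They run from chr11:83704092-83704942 for Wfdc17, chr11:83709118-83709999 for Wfdc18 and chr11:83747027-83749327 for Wfdc21, introns left out, 5′ to 3′, with in-frame cysteine codons (TGC or TGT) in capitals.
Wfdc17: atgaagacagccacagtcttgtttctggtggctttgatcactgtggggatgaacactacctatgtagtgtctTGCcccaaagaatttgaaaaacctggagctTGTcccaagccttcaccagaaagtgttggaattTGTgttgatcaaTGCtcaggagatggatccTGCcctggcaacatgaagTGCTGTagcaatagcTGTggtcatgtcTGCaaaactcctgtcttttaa
Wfdc18: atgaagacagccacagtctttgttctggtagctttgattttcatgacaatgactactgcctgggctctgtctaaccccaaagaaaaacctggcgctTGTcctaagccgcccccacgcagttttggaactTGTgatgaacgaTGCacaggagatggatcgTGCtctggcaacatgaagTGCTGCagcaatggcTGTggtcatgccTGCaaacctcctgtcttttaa
Wfdc21: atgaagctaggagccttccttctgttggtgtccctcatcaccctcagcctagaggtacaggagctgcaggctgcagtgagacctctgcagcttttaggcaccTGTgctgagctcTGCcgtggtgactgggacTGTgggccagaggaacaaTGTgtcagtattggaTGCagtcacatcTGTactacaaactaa

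The coding sequence of Wfdc17 holds 9 cysteine codons, that of Wfdc18 holds 8 and that of Wfdc21 holds 6. Wfdc17 was identical to Wfdc18 at 79.7% of the aligned positions and to Wfdc21 at 50.0%. Across the full transcript of Wfdc17, none of its 503 windows of 31 bases, of its 484 windows of 50 bases or of its 459 windows of 75 bases was found in the transcript of any other gene of the annotation. The labels give reads of 50 and 75 bases, so an error-free read from Wfdc17 of either length matched no other annotated gene.

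Library depth, read from the authors' log2 table, ranged from 3071644 to 29087262 estimated reads. Levels are given as scaled TPM, the deposited TPM (transcripts per 1e+06, a unit that corrects for transcript length) divided by a size factor per library of 0.442 to 1.43. A group of 10 libraries stood apart from the other 35 by a score, computed as the mean of 100 genes minus that of another 100, which were chosen as differing most evenly between the third replicate and the other replicates of 4 groups at 68 h. That score was 2.18 to 7.24 in the 10 libraries and -1.87 to 0.13 in the rest. They are all 3 libraries of LPS-treated DL1 cells at 20 h, all 3 of anti-IgM-treated OP9 cells at 20 h, and the third replicate of LPS-treated DL1 cells, LPS-treated OP9 cells, anti-IgM-treated OP9 cells and unstimulated OP9 cells at 68 h. For the third replicates of those 4 groups at 68 h, a high score follows from the choice of the genes, which used them. All 10 are called divergent libraries here. Tests of Wfdc17 between stimuli, or against no stimulus, at 68 h that rest on them are given with and without them.

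B cells without a stimulus had the highest levels of Wfdc17 on either stroma. The libraries of unstimulated DL1 cells had 244.8, 214.2 and 240.5 scaled TPM, and those of unstimulated OP9 cells had 144.8, 294.3 and 388.2. The DL1 values lay inside the range of the OP9 values, so these groups overlapped. Means were 233.2 ± 16.6 scaled TPM in DL1 cells and 275.8 ± 123 in OP9 cells (SD, n = 3 each).

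The unstimulated OP9 cultures had the highest summed levels of stromal and of neutrophil markers among the 15 groups. Cd79a, a signalling subunit of the B cell receptor, was at 2530 to 2920 TPM in unstimulated DL1 cells and at 173 to 1030 TPM in unstimulated OP9 cells. The sum of 26 stromal markers was 231 to 511 TPM in unstimulated DL1 cells and 1290 to 18500 TPM in unstimulated OP9 cells, with none of the 26 at 0 in all 3 OP9 libraries. The sum of 15 neutrophil markers was 9.79 to 17 TPM in unstimulated DL1 cells and 109 to 857 TPM in unstimulated OP9 cells. Their part in the level of Wfdc17 in unstimulated OP9 cells was not tested. In such bulk libraries, fewer cells of a type and less RNA per cell cannot be told apart.

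Macrophage markers were examined because Wfdc17 is known from macrophages. Among 24 listed genes in the table, Cybb, a subunit of the phagocyte oxidase that B cells also express, reached 1590 TPM and made up over 50% of the sum in 42 of the 45 libraries (4.63% to 81.2% in unstimulated OP9 cells), so the sum is given without it. The remaining 23 markers added up to 41 to 65.6 TPM in unstimulated DL1 cells and to 71.2 to 239 TPM in unstimulated OP9 cells. Lyz2 (lysozyme) was at 0 to 0.247 TPM in unstimulated DL1 cells, where Wfdc17 was at its second highest mean, and at 11.3 to 77.3 TPM in unstimulated OP9 cells. Over the 42 libraries other than unstimulated OP9 cells, Lyz2 did not exceed 9.97 TPM, Csf1r (the receptor of a macrophage growth factor) 1.05 TPM, Cd14 (a co-receptor for LPS) 1.25 TPM and C1qa (a complement component) 0.0553 TPM. Emr1 (the macrophage surface protein F4/80) reached 6.75 TPM in those 42 libraries. With anti-IgM it was at 0.214 to 0.316 TPM in DL1 cells at 20 h, against 0.0815 to 1.34 TPM in OP9 cells. At 44 h it was at 0 to 0.223 TPM in DL1 cells, against 2.34 to 3.9 TPM in OP9 cells, and at 68 h at 0.201 to 0.793 TPM in DL1 cells, against 1.23 to 6.75 TPM in OP9 cells. In unstimulated DL1 cells it was at 2.77 to 6.06 TPM, and in LPS-treated DL1 cells at 0 to 0.53 TPM. The sum of the 23 markers with anti-IgM at 44 h was 37.6 to 51.6 TPM in DL1 cells and 37.4 to 46.2 TPM in OP9 cells. In those OP9 libraries Lyz2 was at 0.161 to 0.431 TPM and Csf1r at 0.2 to 0.405 TPM. With LPS at 44 h the sum was lower on either stroma, at 11.4 to 18.2 TPM in DL1 cells and 14.1 to 27.3 TPM in OP9 cells. On OP9 at 20 h the sums with LPS (13.4 to 46.5 TPM) and with anti-IgM (19.3 to 42.9 TPM) overlapped. The part of macrophage RNA in the level of Wfdc17 was not tested.

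**Figure D1:**
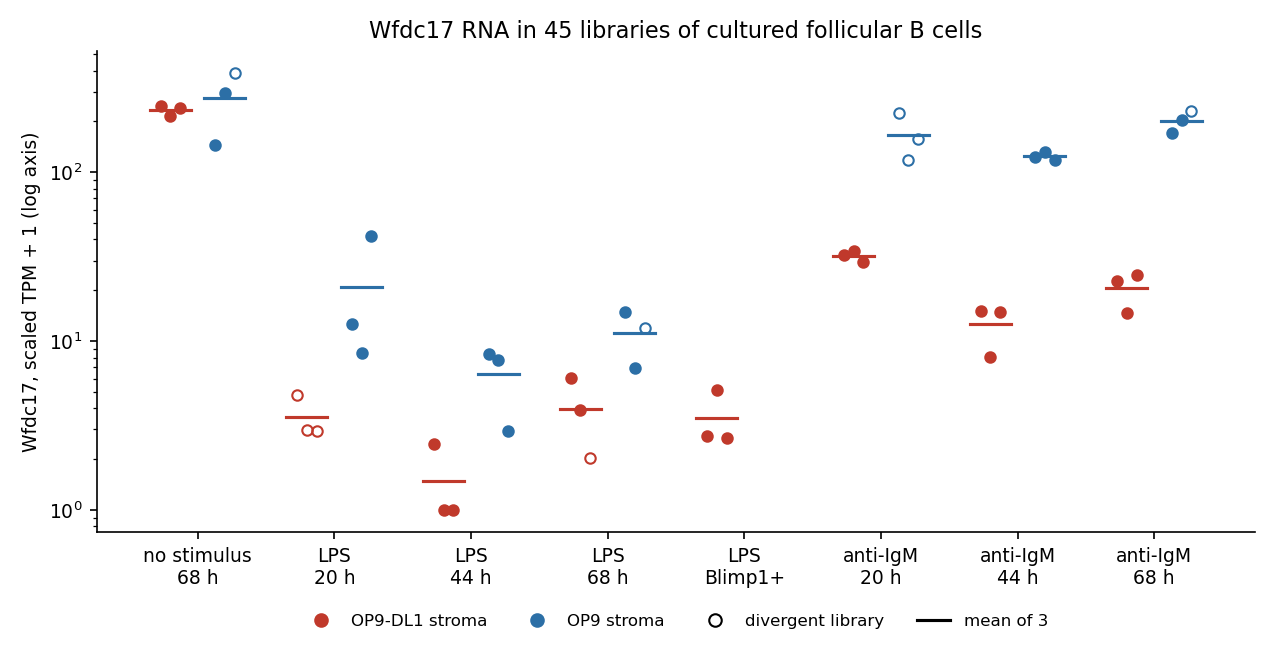
Wfdc17 in each library as scaled TPM plus 1 on a log axis, by stimulus and time, with DL1 cells in red to the left of OP9 cells in blue. Each circle is 1 library, open circles are the 10 divergent libraries and bars are means of 3; the 3 libraries of anti-IgM-treated DL1 cells at 44 h sit between 7.11 and 14.1 scaled TPM and those of OP9 cells between 117.8 and 130.6.

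In LPS cultures Wfdc17 was low on both stromas and lowest in DL1 cells. At 20 h the DL1 libraries, all divergent, had 3.82, 1.99 and 1.93 scaled TPM and the OP9 libraries had 11.7, 7.48 and 41.0. At 44 h, where no library was divergent, DL1 cells had 1.48 scaled TPM in 1 library and 0 in the other two, against 7.43, 6.77 and 1.95 in OP9 cells. At 68 h DL1 cells had 5.03, 2.92 and 1.02 scaled TPM and OP9 cells had 13.9, 5.92 and 10.9. At each of the 3 times, every DL1 library lay below every OP9 library, as for 10.8%, 9.73% and 4.23% of all genes tested. The Blimp1+ cells from DL1 cultures had 1.74, 4.15 and 1.67 scaled TPM, within the span of LPS-treated DL1 cells.

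The lowest of these values rest on few reads. DL1 cells with LPS at 44 h had 3 estimated Wfdc17 reads in 21248323, against 34 in 25808311 in OP9 cells. In the libraries with no read, 3 reads would correspond to 0.507 and 0.399 reads per 1e+06, which is the level that a count of 0 allows. These limits cover counting error only.

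With anti-IgM, OP9 cells had Wfdc17 at 117.8 scaled TPM or more in every library, and DL1 cells had a fraction of that level. At 20 h the DL1 libraries had 31.5, 33.3 and 28.3 scaled TPM, and the OP9 libraries, all divergent, had 222.2, 117.8 and 156.4. At 44 h DL1 cells had 14.1, 7.11 and 13.9 scaled TPM, against 121.8, 130.6 and 117.8 in OP9 cells. At 68 h the values were 21.7, 13.8 and 23.7 in DL1 cells and 169.9, 203.9 and 231 in OP9 cells. The highest DL1 library with anti-IgM stayed well below the lowest OP9 library with anti-IgM, at every time. The same separation was seen for 19.7%, 17.3% and 13.7% of all genes tested at 20, 44 and 68 h.

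As a log2 difference of scaled TPM plus 1, DL1 minus OP9, Wfdc17 was at -2.33 with anti-IgM at 20 h, -3.35 at 44 h and -3.31 at 68 h. With LPS the differences were -2.25 at 20 h, -2.09 at 44 h and -1.56 at 68 h. Without a stimulus the difference was -0.13, smaller than the pooled SD of 0.52 between libraries. On deposited TPM, with no size factor, the unstimulated means stood the other way round, at 309.2 ± 11.5 TPM in DL1 cells and 247.8 ± 90.3 TPM in OP9 cells (SD, n = 3 each). Without the divergent libraries the differences were -3.21 with anti-IgM at 68 h, -1.06 with LPS at 68 h and 0.17 without a stimulus, and at 20 h none could be formed.

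The mean of the 7 differences was -2.15, and the groups did not overlap in 6 of the 7 pairs. Lower values without overlap in at least 6 of the 7 pairs were seen for 8 of the 15614 genes tested (0.0512%), a share in which nothing can be read because the gene was chosen on this contrast. Ordered by the mean difference, Wfdc17 stood at rank 3 from the lowest. Just inside it were Saa3 (serum amyloid A3) at -2.9 and Ptn (pleiotrophin) at -2.29, and just outside was Spp1 (osteopontin) at -2.03. Whether the stroma difference itself varied with stimulus or time was not tested, since the gene was picked for it.

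**Figure D2:**
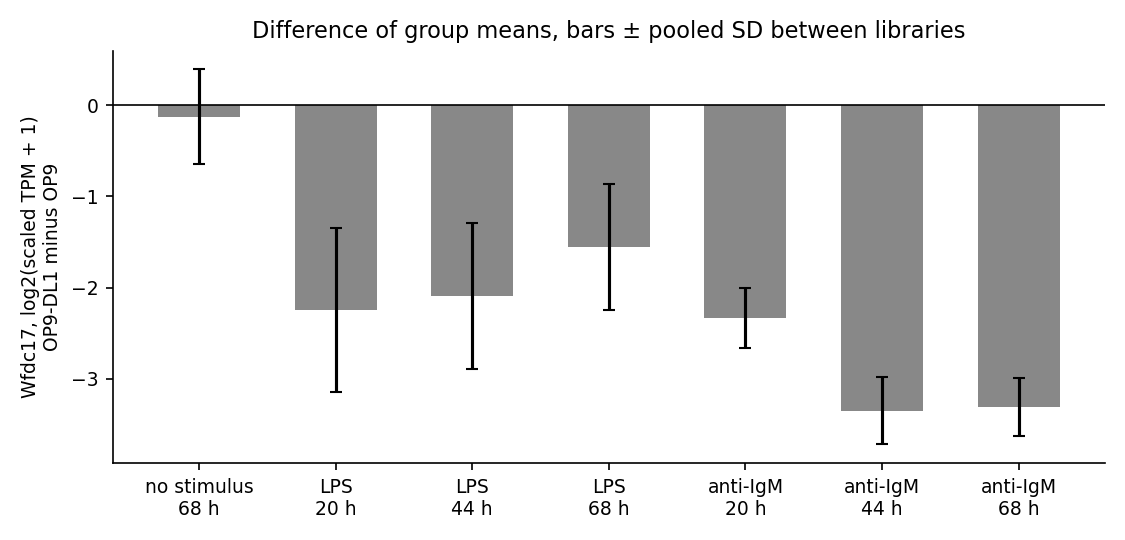
Difference in mean log2(scaled TPM + 1) of Wfdc17, DL1 minus OP9 cells, for the 7 matched pairs of groups. Bars start at 0 and their error lines are plus and minus the pooled SD between libraries; the anti-IgM pairs lie between -3.35 and -2.33, the LPS pairs between -2.25 and -1.56, and the unstimulated pair at -0.13.

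Over all 15 groups, ordered by mean, the highest 5 were unstimulated OP9 cells, unstimulated DL1 cells, and anti-IgM-treated OP9 cells at 68, 20 and 44 h. Each of these overlapped with its neighbour in the order. The next mean, 31.03 ± 2.52 scaled TPM in anti-IgM-treated DL1 cells at 20 h, was separated from the fifth, 123.4 ± 6.55 in anti-IgM-treated OP9 cells at 44 h, with no overlap. Without the divergent libraries, which leaves 13 groups, unstimulated DL1 cells (233.2) came before unstimulated OP9 cells (219.5). Anti-IgM-treated OP9 cells at 68 h then stood next to those at 44 h, with no overlap. These groups did not overlap with all libraries either, where the 20 h group stood between them. Below the sixth mean followed LPS-treated OP9 cells at 20 h, anti-IgM-treated DL1 cells at 68 and 44 h, LPS-treated OP9 cells at 68 and 44 h, and then the LPS-treated DL1 groups. All neighbours in that lower stretch overlapped except the last pair, where LPS-treated DL1 cells at 44 h (0.493 ± 0.853) lay below Blimp1+ cells (2.52 ± 1.41). The spread between libraries in relation to the mean was widest in LPS-treated DL1 cells at 44 h, with an SD of 173% of the mean. LPS-treated OP9 cells at 20 h came next with 91%. Unstimulated OP9 cells, the group with the highest mean, had 44.5%.

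Stimuli were then compared within 1 stroma, a set of 20 comparisons that the choice of the gene did not use. They were tested with limma on all 45 libraries. In each comparison p-values were adjusted by Benjamini-Hochberg across all 15614 genes, and a call needs an adjusted p below 0.05. Wfdc17 was called in 9 of the 20, always lower: in LPS against no stimulus on both stromas, in anti-IgM against no stimulus on DL1, and in all 6 comparisons of LPS against anti-IgM. Standard errors of these log2 differences are 0.48 throughout, because the model shares 1 estimate of spread.

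After 68 h on DL1 stroma, Wfdc17 was lower with either stimulus than in unstimulated cells. With LPS it averaged 2.99 ± 2.00 scaled TPM, against 233.2 ± 16.6 in unstimulated cells, a log2 difference of -6.01 (64.5-fold lower on the scaled TPM plus 1 scale, limma adjusted p = 3.8e-11). In the same comparison 8.1% of all genes tested were called and 2.56% were called lower. With anti-IgM it averaged 19.7 ± 5.25 scaled TPM, a log2 difference of -3.53 from unstimulated cells (11.6-fold lower, limma adjusted p = 3.2e-06), where 9.52% of genes were called and 3.46% were called lower. All 3 stimulated libraries lay below all 3 unstimulated ones in both cases. Without the divergent library the LPS difference was -5.59 (limma adjusted p = 1.7e-08).

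On OP9 stroma at 68 h, LPS gave 10.2 ± 4.02 scaled TPM, against 275.8 ± 123 in unstimulated cells. That is a log2 difference of -4.58 (23.9-fold lower, limma adjusted p = 2e-09), and without the divergent libraries it was -4.35 (limma adjusted p = 6.4e-07). Here 30.5% of genes were called and 19.1% were called lower, in a comparison where the unstimulated libraries hold the stromal, neutrophil and macrophage marker RNA given above, whose part was not tested. Anti-IgM gave 201.6 ± 30.6 scaled TPM on OP9, a log2 difference of -0.35 from unstimulated cells with a 95% interval of -1.32 to 0.62 (limma adjusted p = 0.7). That comparison called 23.9% of genes, Wfdc17 not among them, and its interval leaves room for changes in either direction. Without the divergent libraries the difference was -0.15 (limma adjusted p = 0.91).

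LPS against anti-IgM compares stimulated cells with each other, away from the unstimulated OP9 libraries. At 44 h, the time with no divergent library, LPS-treated OP9 cells averaged 5.38 ± 2.99 scaled TPM and anti-IgM-treated OP9 cells 123.4 ± 6.55, a log2 difference of -4.43 (21.5-fold lower, limma adjusted p = 5.3e-08). LPS-treated DL1 cells at 44 h averaged 0.493 ± 0.853 scaled TPM and anti-IgM-treated DL1 cells 11.7 ± 3.98, a log2 difference of -3.17 (limma adjusted p = 2.4e-05). By reads, the DL1 groups had 3 in 21248323 with LPS and 93 in 26307344 with anti-IgM, a rate ratio of 0.0393 (exact 95% interval 0.00809 to 0.12, counting error only). Of all genes tested at 44 h, 2.91% were called on DL1 and 8.63% on OP9, with 1.39% and 3.73% called lower and 1.52% and 4.9% called higher.

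At 68 h the difference between LPS and anti-IgM was -2.48 in DL1 cells (limma adjusted p = 0.00088) and -4.23 in OP9 cells (limma adjusted p = 1.3e-07), beside 4.39% and 4.56% of genes called. Without the divergent libraries these were -2.06 (limma adjusted p = 0.013) and -4.21 (limma adjusted p = 1.5e-05). The DL1 difference was -2.48 as well when only its 2 groups were fitted, but with an adjusted p of 0.089. At 20 h the differences were -3.2 in DL1 cells (limma adjusted p = 2.9e-05) and -3.28 in OP9 cells (limma adjusted p = 1.1e-05), with 7.11% and 28.5% of genes called. In both 20 h comparisons 1 group consists of divergent libraries only, so the stimulus and the divergence cannot be told apart there. Genes called lower with LPS in all 6 comparisons numbered 31 (0.199% of those tested), Wfdc17 among them, and 24 (0.154%) were called higher in all 6.

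**Figure D3:**
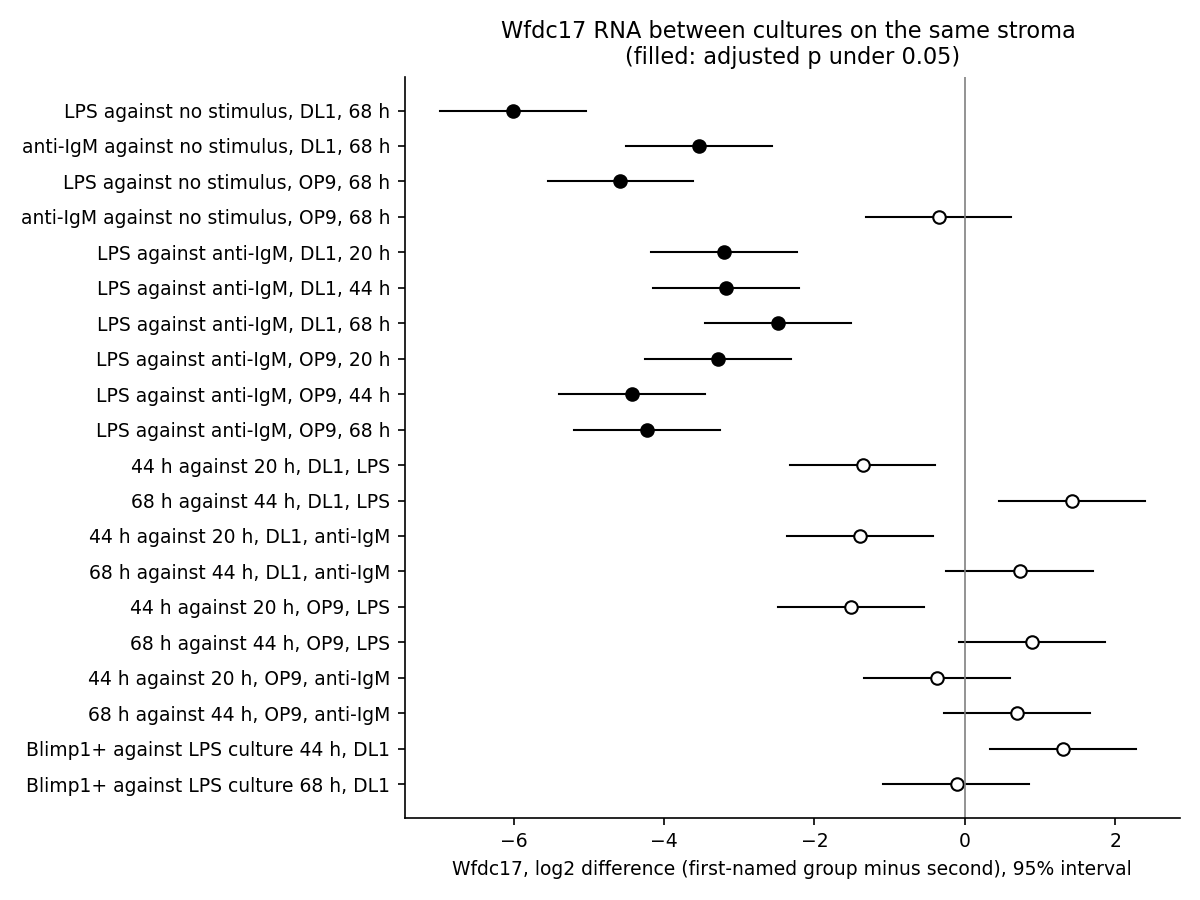
Log2 difference of Wfdc17, first-named group minus second, in the 20 comparisons within 1 stroma, with 95% intervals from limma. Filled points passed an adjusted p below 0.05; these 9 lie between -6.01 and -2.48, and the open points lie between -1.52 and 1.42.

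None of the 8 comparisons between times passed the test, with limma adjusted p between 0.064 and 0.97 and unadjusted p between 0.0032 and 0.44, of which 4 were below 0.05. From 20 to 44 h, 2.21% of all genes tested were called with LPS on DL1, 0.0576% with anti-IgM on DL1, 1.74% with LPS on OP9 and 24.2% with anti-IgM on OP9. From 44 to 68 h the shares were 7.18%, 0.179%, 6.91% and 0.0128% in the same order. LPS-treated DL1 cells averaged 2.58 ± 1.07 scaled TPM at 20 h, 0.493 ± 0.853 at 44 h and 2.99 ± 2.00 at 68 h. Anti-IgM-treated DL1 cells averaged 31.03 ± 2.52 at 20 h, 11.7 ± 3.98 at 44 h and 19.7 ± 5.25 at 68 h. OP9 cells with LPS averaged 20.1 ± 18.3, 5.38 ± 2.99 and 10.2 ± 4.02 scaled TPM at these times, and OP9 cells with anti-IgM averaged 165.5 ± 52.8, 123.4 ± 6.55 and 201.6 ± 30.6. The mean at 44 h was the lowest of the 3 times in all 4 series on scaled TPM. With anti-IgM on OP9, where the 20 h libraries are all divergent, this turned round on deposited TPM (124.5 ± 17.3 TPM at 20 h and 158.2 ± 12.6 at 44 h). Without the divergent libraries, LPS-treated DL1 cells at 68 h were higher than at 44 h by 1.84 on the log2 scale (limma adjusted p = 0.02), and LPS-treated OP9 cells at 44 h were lower than at 20 h, with a difference of -1.52 (limma adjusted p = 0.043). Those OP9 groups hold no divergent library, so their difference was -1.52 with all libraries too, where it was not called.

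Blimp1+ cells, the fraction with an active reporter of the plasma cell regulator, differed from LPS-treated DL1 cells by 1.31 at 44 h (limma adjusted p = 0.071) and by -0.11 at 68 h (limma adjusted p = 0.95). Neither passed the test, where 12% and 2.84% of genes were called. Neither the Blimp1+ nor the 44 h group holds a divergent library. With the divergent libraries of other groups left out, the 44 h difference stayed at 1.31, with a limma adjusted p of 0.044. By reads it was 15 in 24761432 in Blimp1+ cells against 3 in 21248323 at 44 h.

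Among the relatives of Wfdc17, Wfdc21 and Slpi had other profiles, and Wfdc18 followed Wfdc17 in part. Of 24 other WAP genes looked up, 22 were in the table and 4 passed the filter on low values (Wfdc18, Wfdc21, Slpi and Wfikkn1), so the rest were too low to be tested. Wfdc21, a secreted family member next to Wfdc18, was called higher with LPS than with anti-IgM at 44 and 68 h on either stroma, where Wfdc17 was called lower. LPS-treated cells at 68 h had 101 ± 8.4 scaled TPM of Wfdc21 on DL1 and 124 ± 10.9 on OP9, against 3.95 ± 2.54 on DL1 and 1.18 ± 1.26 on OP9 with anti-IgM. These are log2 differences of 4.48 ± 0.87 (SE, limma adjusted p = 0.00096) and 6.01 ± 0.87 (limma adjusted p = 1.2e-05), and without the divergent libraries 4.55 (limma adjusted p = 0.00032) and 6.4 (limma adjusted p = 1.3e-05). At 44 h they were 3.17 (limma adjusted p = 0.034) on DL1 and 2.92 (limma adjusted p = 0.028) on OP9, calls that did not hold with a pseudocount of 0.1 (adjusted p = 0.14 and 0.086). With LPS at 44 h Wfdc21 averaged 39.5 ± 10.1 scaled TPM in DL1 cells and 25.7 ± 8.33 in OP9 cells, and with anti-IgM 3.71 ± 1.92 in DL1 cells and 2.47 ± 0.88 in OP9 cells.

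Wfdc18, the closest relative by sequence, was a low gene. It was listed at 0 in all 21 libraries that received LPS, Blimp1+ cells included, and averaged at most 3.87 ± 2.95 scaled TPM, in unstimulated DL1 cells. Its LPS difference from unstimulated DL1 cells was called (limma adjusted p = 0.013), as was that from anti-IgM-treated OP9 cells at 68 h (limma adjusted p = 0.046), and each was lost in at least 1 alternative. These were -2.11 (limma adjusted p = 0.00093) and -2.43 (limma adjusted p = 0.0011) without the divergent libraries. In that fit Wfdc18 was also lower with LPS than anti-IgM on OP9 at 44 h (-1.66, limma adjusted p = 0.0024). In the same fit Wfdc18 on DL1 was lower with anti-IgM than without a stimulus (-1.44, limma adjusted p = 0.0066), but on OP9 higher (2.25, limma adjusted p = 0.00034). DL1 minus OP9, again in that fit, it was at -1.76 with anti-IgM at 68 h (limma adjusted p = 0.014) and at 1.93 without a stimulus (limma adjusted p = 0.00063). None of these further differences was called with all libraries. The unstimulated OP9 libraries kept in that fit had 0 and 0.281 scaled TPM of Wfdc18, and the divergent one left out had 4.17. Slpi, the secretory leukocyte protease inhibitor, reached 502 ± 115 scaled TPM in Blimp1+ cells, against 6.62 ± 1.74 in LPS-treated DL1 cells at 44 h, a log2 difference of 6.05 ± 0.79 (SE, limma adjusted p = 1.1e-06). Pearson's r of log2 levels with Wfdc17 over the 45 libraries, which share groups and depth, was 0.65 for Wfdc18, -0.49 for Wfdc21, -0.29 for Slpi and 0.33 for Wfikkn1, and over the 35 that were not divergent 0.69, -0.42, -0.31 and 0.42 in the same order.

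**Figure D4:**
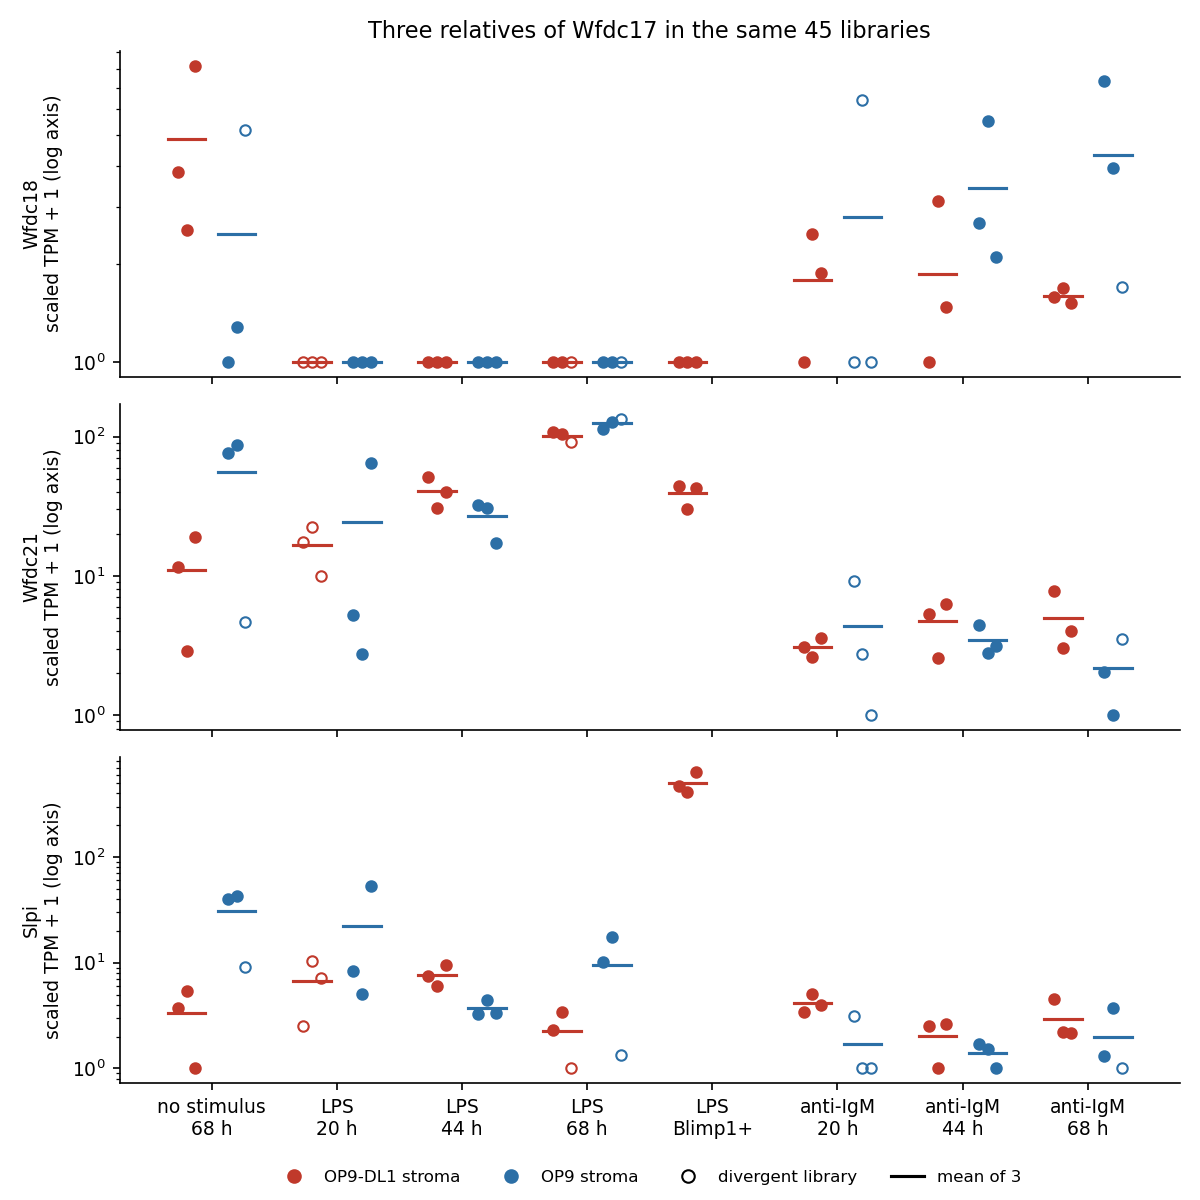
Wfdc18, Wfdc21 and Slpi in the same 45 libraries as scaled TPM plus 1 on log axes, with DL1 cells in red left of OP9 cells in blue, open circles for divergent libraries and bars for means of 3. Wfdc21 is highest with LPS at 68 h (101 on DL1 and 124 on OP9), Slpi in Blimp1+ cells (502), and Wfdc18 is at 0 in every library with LPS.

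The neighbourhood of the gene was read from RefSeq (GRCm38.p6), 5 genes on each side. Of these 10, Ccl4, Wfdc18, Wfdc21, Heatr6 and Gm11434 passed the filter. Ccl4, a chemokine induced through the B cell receptor, was lower with LPS than with anti-IgM as Wfdc17 was, at 1.96 ± 1.35 against 207 ± 29.2 scaled TPM in DL1 cells at 44 h (log2 difference -6.22 ± 0.85, limma adjusted p = 5.2e-06). In OP9 cells at 44 h it had 2.78 ± 0.929 with LPS and 53.8 ± 1.75 with anti-IgM (-3.88 ± 0.85, limma adjusted p = 0.0022). With anti-IgM, Ccl4 differed between stromas the other way from Wfdc17. At 68 h it was at 120 ± 3.86 scaled TPM in DL1 cells and 11.2 ± 10.1 in OP9 cells (4.15 ± 0.85, limma adjusted p = 0.0088), where 1.11% of genes were called higher. Without the divergent OP9 library that difference was 2.77 ± 0.57 (limma adjusted p = 0.0045). Without a stimulus, divergent libraries again left out, Ccl4 was lower in DL1 cells (8.47 against 26.1 scaled TPM, -1.43, limma adjusted p = 0.044). With LPS its DL1 minus OP9 differences were -0.42 at 44 h and -0.3 at 68 h, neither of them called. Heatr6, next to Wfdc21, was not called in any comparison where Wfdc17 was, but without the divergent libraries it was called higher with LPS than without a stimulus on OP9 (0.82, limma adjusted p = 0.038).

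The genes whose levels followed Wfdc17 most closely were taken from 10462 genes with a group mean of at least 5 scaled TPM. Ephx1, a microsomal epoxide hydrolase, had the highest Pearson's r over the 45 libraries, 0.89. It averaged 8.61 ± 0.598 scaled TPM in LPS-treated DL1 cells at 44 h and 17.9 ± 0.941 in OP9 cells, and with anti-IgM 76.1 ± 7.98 in DL1 cells and 189 ± 26.7 in OP9 cells. Like Wfdc17, it was highest in unstimulated cells, at 225 ± 22 scaled TPM on DL1 and 369 ± 105 on OP9. Its r was 0.90 within the 24 DL1 libraries and 0.85 within the 21 OP9 libraries.

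After Ephx1 came Ighd (the constant region of IgD, a mark of resting naive B cells) and Xylt1 (which starts proteoglycan chains), both at 0.84. Faim3 (an Fc receptor for IgM), Hsd11b1 (which regenerates active glucocorticoid), Ube2d1 (a ubiquitin-conjugating enzyme), Snn, Parp8 and Plaur (the urokinase receptor) had r of 0.81, and Cirbp (a cold-inducible RNA-binding protein) 0.80. Ighd averaged 44.7 ± 0.961 scaled TPM in LPS-treated DL1 cells at 44 h and 120 ± 11.3 in OP9 cells, and with anti-IgM 424 ± 30.1 in DL1 cells and 1080 ± 105 in OP9 cells. The next gene in the order, Spag9, had 0.797, and 101 genes reached 0.7 or more. The order depended on the divergent libraries: without them only Ephx1 and Plaur of the 10 were among the top 10, and Tgfb3 (a TGF-beta ligand) led with 0.91. Over the 15 group means, Ephx1 (0.95), Xylt1, Hsd11b1 and Cirbp were again in the top 10, with Ago1, Tgfbr1, Inpp5e, Rassf3, Nr3c1 (the glucocorticoid receptor) and Mllt6.

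At the other end of the scale were Pgam1 (-0.89) and Gpi1, glycolytic enzymes, Lonp1, a protease of mitochondria, Alpl, an alkaline phosphatase, and Psat1, an enzyme of serine synthesis (-0.87 each). Pgam1 averaged 862 ± 60.9 scaled TPM in LPS-treated DL1 cells at 44 h, where Wfdc17 was lowest, and 108 ± 19.7 in unstimulated DL1 cells. With anti-IgM at 44 h it was at 374 ± 22.7 in DL1 cells and 211 ± 16.5 in OP9 cells. In the authors' log2 table the r of these 5 genes with Wfdc17 was between -0.79 and -0.70. All such r describe 45 libraries that share 15 groups, so the points are not independent.

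**Figure D5:**
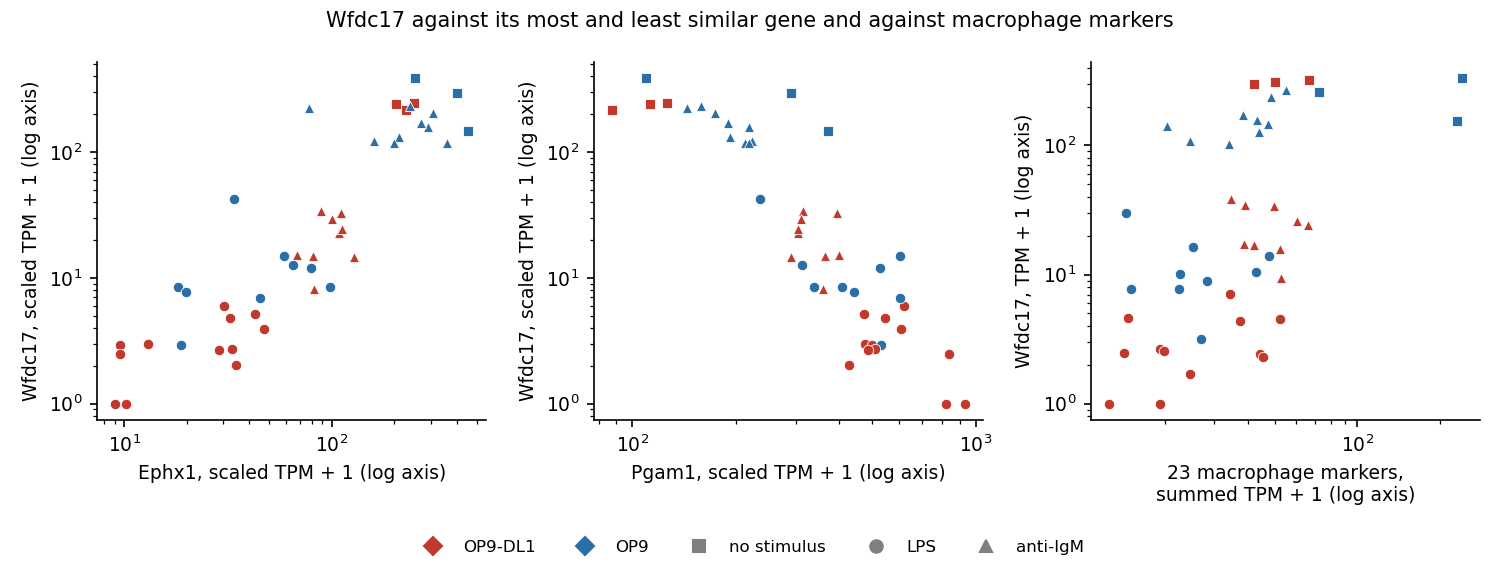
Wfdc17 in the 45 libraries against Ephx1 (left, r = 0.89), Pgam1 (middle, r = -0.89) and the sum of 23 macrophage markers without Cybb (right, r = 0.56), all axes logarithmic. Left and middle are scaled TPM plus 1 and right is deposited TPM plus 1; red is DL1 and blue OP9, squares are unstimulated, circles LPS (Blimp1+ included) and triangles anti-IgM. At right, 2 of the 3 unstimulated OP9 libraries stand far to the right of all others.

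Lists of genes were set beside Wfdc17 in LPS against anti-IgM at 44 h, where no library was divergent and the medians over all genes tested were 0 on DL1 and -0.04 on OP9. Of all genes tested, 1.52% were called higher and 1.39% lower on DL1, and 4.9% higher and 3.73% lower on OP9. In all list counts at 44 h, rose and fell mean called higher or lower with LPS than with anti-IgM. Unstimulated cells were not sampled at 44 h. Of 24 NF-kB targets, 7 rose and 4 fell in DL1 cells (median log2 difference 0.5), and 10 rose and 5 fell in OP9 cells (median 0.34). Those with the largest changes on DL1 were Ccl4 (above), Ccl5 and Ccl3, chemokines, and Il10, a cytokine. Ccl5 was at 26.2 ± 10.4 scaled TPM with LPS, against 0.61 ± 1.06 with anti-IgM. Il10 was at 12.4 ± 0.917 with LPS, against 0.503 ± 0.424 with anti-IgM. Ccl3 was at 4.19 ± 1.45 with LPS, against 62.9 ± 3.09 with anti-IgM.

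Of 18 other protease inhibitors, Slpi included, none rose and 5 fell in DL1 cells (median -0.48), and 1 rose and 4 fell in OP9 cells (median -0.59). Serpinb1a, an inhibitor of neutrophil serine proteases, was at 38.2 ± 8.55 scaled TPM with LPS, against 184 ± 4.82 with anti-IgM, on DL1. Cst7 (cystatin F) was at 0.322 ± 0.298 with LPS, against 8.27 ± 2.48 with anti-IgM. Serpinb6b and Serpinb9, inhibitors inside the cell, fell by 2.41 and 2.37 on the log2 scale. The list was not tested as a set.

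For the other lists the counts at 44 h were as follows, with no test between lists. They stand beside 1.52% of all genes called higher and 1.39% lower on DL1, and 4.9% and 3.73% on OP9. Of 16 B cell identity genes, 1 rose and 1 fell on DL1 (median -0.51), and 3 fell on OP9 (median -0.78), among them Fcrla, an intracellular Fc receptor-like protein of B cells, at 33.3 ± 2.42 scaled TPM with LPS and 339 ± 25.3 with anti-IgM. Of 16 plasma cell genes, 2 rose on DL1 (median 0.04), and 2 rose and 2 fell on OP9 (median -0.3). Of 11 T and NK cell markers, 4 fell on DL1 (median -0.47) and 3 on OP9 (median -0.24), led by Lck, a kinase also found in B cells, at 23.9 ± 7.66 with LPS and 235 ± 18.3 with anti-IgM on DL1. Of 17 macrophage markers, 1 fell on DL1 (median -0.07) and 2 on OP9 (median -0.03). One of them, Cd68, a lysosomal protein, was at 5.49 ± 0.989 with LPS and 23.3 ± 2.34 with anti-IgM on DL1, and its part in the Wfdc17 result was not tested.

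Of 6 dendritic cell markers, 2 rose on each stroma (medians 0.03 on DL1 and -0.14 on OP9), among them Flt3, a cytokine receptor, at 58.6 ± 7.4 with LPS and 8.03 ± 1.14 with anti-IgM on DL1. Of 23 stromal markers, 1 fell on each stroma (medians -0.85 on DL1 and -0.45 on OP9). Of 4 WAP genes, 1 rose on each stroma (medians 1.08 and 0.72), Wfdc21. Of 11 Notch targets, limma called 0 on either stroma, with 1 on DL1 and 2 on OP9 at an unadjusted p below 0.05 (medians 0.09 and -0.04). Of 5 neutrophil markers it also called 0, with 0 on DL1 and 1 on OP9 at an unadjusted p below 0.05 (medians 0 and 0.11).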

How the data were processed

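The authors deposited TPM per gene symbol and a second table of log2 values per library. Those deposited log2 values are of estimated reads, offset by 0.5 and set per 1e+06 of a library total offset by 1, so reads and depth could be solved. Kallisto, limma, GRCm38 and mm10 are named in the submitters' processing notes without versions. Per the labels, cDNA came from a SMART-seq kit and libraries from Nextera XT, and which library ran on which instrument is not stated. TPM in a library add up to 92.1% to 96% of 1e+06. No label says that replicates are separate mice or cultures, so p-values measure the spread between these samples, which may be technical.

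TPM were divided by median-ratio size factors, and log2(value + 1) was fitted with limma 3.58.1 in R 4.3.3 (15 group means, trend, robust), over the 15614 genes with at least 1 TPM in at least 3 libraries. The pseudocount of 1 understates changes of low genes. The script was tested on simulated data. Coordinates and coding sequences come from GENCODE vM21 (GRCm38), neighbours from RefSeq, and figures from matplotlib 3.10.9.

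Gene, lists and comparisons were chosen with earlier results of these data known. Named are the 10 highest and 5 lowest Pearson correlations with Wfdc17 over 45 libraries, the 10 highest over 15 group means (unnamed models and variable-region segments left out), up to 4 called members of a list with the largest change in a comparison where Wfdc17 was called, and 5 RefSeq neighbours per side. Tgfb3, outside this rule, was chosen with its values known. Other genes named outside it are Saa3, Ptn and Spp1, next to Wfdc17 in the order of stroma differences, and Spag9, next in the order of correlations. The single markers Cd79a, Cybb, Lyz2, Csf1r, Cd14, C1qa and Emr1 are outside it too. The list of 24 relatives and 10 further lists (macrophage, neutrophil, dendritic, T and NK cell, stromal, B cell and plasma cell genes, Notch and NF-kB targets, other protease inhibitors) were described by counts.

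Replicate numbers are shared by all groups. Deviations of same-numbered libraries from their group means correlated above 0.1 in all 3 pairs in 3 of the 20 comparisons: LPS against no stimulus on OP9 (0.3, 0.44 and 0.56), anti-IgM against no stimulus on OP9 (0.33, 0.54 and 0.61) and LPS against anti-IgM on OP9 at 68 h (0.39, 0.49 and 0.67). That pairing comes from the data, since no label says what a number shares. The alternatives were deposited TPM, quantile normalization, the authors' log2 table, a filter at 5 TPM or none, a pseudocount of 0.1, the replicate block, only the groups compared, no divergent libraries, and each library left out in turn. The macrophage sum without Cybb, and the neighbours, family correlations and group order without divergent libraries, were added after seeing the data.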

Additional observations from a re-analysis of the deposited data

How the results depend on the processing

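The 9 calls of Wfdc17 kept their direction and stayed past the threshold under every alternative that could be run, except LPS against anti-IgM on DL1 at 68 h with only the groups compared (-2.48, adjusted p = 0.089). The cause was not tested. With the replicate block no call changed in any of the 20 comparisons. LPS against no stimulus on DL1 gave -6.01 (limma adjusted p = 7.2e-11). LPS against anti-IgM on OP9 at 68 h, where deviations of same-numbered libraries correlated, gave -4.23 (limma adjusted p = 1.8e-07). Leaving out each library in turn changed no called result (LPS against anti-IgM on DL1 at 68 h, -2.84 to -2.06).

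Comparisons not called moved more. 68 h against 44 h in LPS-treated DL1 cells passed with the authors' log2 table (2.23), a pseudocount of 0.1 (3.37), a filter at 5 TPM (1.42, adjusted p = 0.049) and without divergent libraries (1.84), and ranged from 1.06 to 1.86 with each library left out. Blimp1+ cells against 44 h passed with the authors' log2 table (2.19), a pseudocount of 0.1 (3.26) and without divergent libraries (1.31), with a leave-one-out range of 1 to 1.74. Against 68 h that range was -0.54 to 0.25. 44 h against 20 h with LPS passed on DL1 with a pseudocount of 0.1 (-3.35) and on OP9 without divergent libraries (-1.52), where leaving out each library gave -2 to -0.84. 44 h against 20 h with anti-IgM on OP9 reversed from -0.37 to 0.35 on deposited TPM, 0.07 with quantile normalization and 0.36 with the authors' log2 table. Blimp1+ cells against 44 h, and 44 h against 20 h with LPS on OP9, compare groups that hold no divergent library. Leaving out the divergent libraries changed their SE (0.48 to 0.47) and adjusted p, not the difference. For the other changes the cause was not tested. Of the DL1 minus OP9 differences, anti-IgM at 20 h moved to -1.8 on deposited TPM and -1.72 with the authors' table, no stimulus to 0.42 with quantile normalization, and LPS at 44 h to -3.22 with the authors' table and -4.24 with a pseudocount of 0.1. The mean of the 7 was between -2.58 and -2.01 on deposited TPM, with quantile normalization, the authors' log2 table and a pseudocount of 0.1, and with each library left out. It was not formed without divergent libraries, since both 20 h pairs are lost.

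Size factors moved the median of all genes by over 0.1 in 13 of 27 comparisons, by up to 0.39 (44 h against 20 h with anti-IgM on OP9). Without divergent libraries, 20 h groups made only of them gave no value. Levels in LPS-treated DL1 cells rest on 3 to 19 estimated reads a group, which limits differences among them.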
